A study of Mus musculus with 9 samples.

Results

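Perforin and the granzymes Gzma, Gzmb, Gzmc, Gzmd, Gzme, Gzmf, Gzmg and Gzmk are described here across 9 RNA-seq libraries of healthy mouse colon and CT26 tumours. The 9 genes were chosen by symbol with earlier results of the same libraries in view, so their levels and differences are given as a description, without p-values. How many of them a fit over all genes called is printed beside the share of all genes called, and supports nothing. All 9 were matched to Ensembl gene IDs, among 56398 features counted. All samples came from BALB/c mice. In the sham group, 3 healthy colons were sampled. The model group held 3 tumours that grew after injection of CT26 cells, an established colon carcinoma line from the same strain, in mice given saline once a day at 6 g/kg. The AC group held 3 tumours from CT26-injected mice given Astragalus and Curcuma phaeocaulis Valeton, combined 2:1, once a day at the same dose. The labels call both kinds of tumour colon tumours and give neither the injection site, the age and sex of the mice nor the time of sampling. Every tumour derives from 1 cell line, and the colon samples are whole tissue from sham mice, so the step from colon to tumour joins a change of tissue to the presence of a tumour, and these cannot be told apart.

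Cytotoxic lymphocytes, that is NK cells and activated CD8 T cells, carry granules loaded with perforin and granzymes and release them onto a target cell. Perforin, encoded by Prf1, assembles into pores in the target membrane and lets granzymes in. Granzymes are serine proteases: granzyme B cleaves caspases and drives apoptosis, granzyme A is a tryptase that cleaves other nuclear and mitochondrial substrates, and granzyme K is a related tryptase. Granzymes C to G are encoded by rodent genes that arose by duplication beside Gzmb, and they are known from activated lymphocytes in culture and from granular lymphocytes of the pregnant uterus. In the gut, Gzma and Gzmb are typical of intraepithelial lymphocytes.

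Total counts per library ran from 15690038 to 23476056, and the 9 genes took 0.0019% to 0.0054% of them in sham colon, 0.0381% to 0.0403% in model tumours and 0.0323% to 0.0747% in AC tumours. Some libraries stood apart from the rest of their group. Sham replicate 1 differed from the other sham libraries by a chi-square per degree of freedom of 100.45 and 118.84, against 3.06 between sham replicates 2 and 3. It carried more B cell RNA (363 summed FPKM over 6 markers, against 59.7 and 42.3) and less smooth muscle RNA (30.8 summed FPKM over 5 markers, against 342 and 361). Among the tumours, the epithelial marker Epcam reached 19.98 FPKM in model replicate 1 and 39.3 in AC replicate 3, and at most 0.548 in the other 4 tumours, against 976 to 1159 in sham colon. FPKM is the count scaled to gene length and to the library's total count, and is the scale used wherever genes are compared with each other.

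Of the 9 genes, 6 lie together. In GENCODE M21 on GRCm38, Gzme, Gzmd, Gzmg, Gzmf, Gzmc and Gzmb, with Gzmn between Gzmg and Gzmf, occupy 144.6 kb of chromosome 14 (chr14:56117626-56262260), all on the minus strand, with Ctsg and mast cell protease genes beyond Gzme. Gzma (chr13:113093825-113100981) and Gzmk (chr13:113171608-113225908) neighbour each other on the minus strand of chromosome 13, and Prf1 (chr10:61297833-61304680) lies alone on the plus strand of chromosome 10. Over their longest coding transcripts, Gzmc to Gzmg were 68.8% to 90.0% identical in 10 pairs, with Gzmd and Gzme the closest. Gzmb was 45.4% to 47.5% identical to each of them. Gaps count against identity, and the Gzmb transcript has 1436 bases against 894 to 964 for Gzmc to Gzmg, so length alone lowers its values. By the same measure Gzma, on chromosome 13, was 51.0% identical to Gzmc. Of all 50-base windows in the annotated transcripts, 4.14% in Gzmc and 19.4% to 21.9% in Gzmd, Gzme, Gzmf and Gzmg also occur in another gene. For 100-base windows the share was at most 6.71%, in Gzmf, and those windows match Gm4022, which overlaps Gzmf on the other strand and held at most 5 counts in any library. How reads that fit several genes were counted is not given in the sources used here, so the split of reads among granzymes C to G is uncertain, while their sum is less so. No 50-base window of Gzma, Gzmb, Gzmk or Prf1 occurs in another gene.

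The 250 bases upstream of each start, from RefSeq on GRCm38.p6, are printed for the cluster genes. Gzmc to Gzmg, low or undetected in colon and abundant in tumours, share this sequence. Gzmb and Gzmn, in the same cluster, do not share it within the windows printed. Prf1 was also low in colon and abundant in tumours, with an upstream sequence only 42.5% to 47.0% identical to those of Gzmc to Gzmg. Whether the upstream sequence bears on the levels was not tested. Sequences run 5′ to 3′ on the minus strand, and capitals mark matches on either strand to the RUNX motif TGTGGT, which reads ACCACA from the other strand, or to the AP-1 motif TGANTCA.
Gzme, chr14:56120626-56120875: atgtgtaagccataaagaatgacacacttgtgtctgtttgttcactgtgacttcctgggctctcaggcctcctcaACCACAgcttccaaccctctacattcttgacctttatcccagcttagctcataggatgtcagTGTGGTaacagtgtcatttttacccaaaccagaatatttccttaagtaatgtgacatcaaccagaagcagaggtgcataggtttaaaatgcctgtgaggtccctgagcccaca
Gzmd, chr14:56132594-56132843: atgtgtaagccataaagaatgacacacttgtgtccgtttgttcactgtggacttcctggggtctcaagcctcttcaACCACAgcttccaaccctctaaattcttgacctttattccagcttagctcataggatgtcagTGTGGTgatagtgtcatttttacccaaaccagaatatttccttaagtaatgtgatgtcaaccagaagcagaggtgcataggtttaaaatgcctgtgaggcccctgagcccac
Gzmg, chr14:56159580-56159829: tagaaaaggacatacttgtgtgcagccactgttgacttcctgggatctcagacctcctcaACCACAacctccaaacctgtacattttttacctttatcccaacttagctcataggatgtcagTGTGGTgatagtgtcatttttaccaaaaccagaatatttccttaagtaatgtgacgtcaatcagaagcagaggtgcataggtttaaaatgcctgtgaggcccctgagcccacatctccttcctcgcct
Gzmf, chr14:56211408-56211657: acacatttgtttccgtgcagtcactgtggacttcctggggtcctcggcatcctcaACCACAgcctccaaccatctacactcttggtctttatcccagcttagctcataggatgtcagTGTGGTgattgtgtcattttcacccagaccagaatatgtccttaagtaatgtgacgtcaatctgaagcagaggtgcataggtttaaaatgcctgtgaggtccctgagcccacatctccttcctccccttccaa
Gzmc, chr14:56234658-56234907: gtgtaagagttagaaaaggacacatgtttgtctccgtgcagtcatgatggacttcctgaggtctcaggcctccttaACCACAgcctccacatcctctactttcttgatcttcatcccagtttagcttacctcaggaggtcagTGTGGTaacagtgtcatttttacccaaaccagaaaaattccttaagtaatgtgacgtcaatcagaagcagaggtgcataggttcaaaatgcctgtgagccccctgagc
Gzmb, chr14:56262335-56262584: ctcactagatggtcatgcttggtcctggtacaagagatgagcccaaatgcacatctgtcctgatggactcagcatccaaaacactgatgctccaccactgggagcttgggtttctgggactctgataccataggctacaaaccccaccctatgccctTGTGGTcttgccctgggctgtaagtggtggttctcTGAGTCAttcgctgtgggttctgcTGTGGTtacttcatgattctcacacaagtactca
Gzmn, chr14:56174600-56174849: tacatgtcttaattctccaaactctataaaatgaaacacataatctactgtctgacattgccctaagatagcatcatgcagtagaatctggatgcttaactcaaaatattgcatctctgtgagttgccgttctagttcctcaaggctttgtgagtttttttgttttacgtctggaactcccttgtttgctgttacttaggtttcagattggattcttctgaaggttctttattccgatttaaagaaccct
The upstream sequences of Gzmc to Gzmg were 70.2% to 94.8% identical to each other, again with Gzmd and Gzme the closest. Gzmb was 44.1% to 47.5% and Gzmn 44.8% to 48.9% identical to them, within the 42.5% to 48.9% found for Prf1, Gzma and Gzmk against Gzmb to Gzmg. Over these windows, neither resembled them more than genes outside the cluster did. RefSeq starts can differ from GENCODE ends. The Gzmb window opens at 56262335, beyond its GENCODE end at 56262260, so it leaves out bases next to that end. The Gzmk window (chr13:113180966-113181215) lies inside its GENCODE span. Identities and positions for both genes depend on the start used. In Gzmd, Gzme, Gzmf and Gzmg, an opposite-strand TGTGGT match lies 62 bases upstream of a same-strand match. In Gzmc the same pair is 66 bases apart. Gzmb also holds 2 matches, 59 bases apart and both on the same strand, together with an AP-1 match at -58 from the start. Gzma and Prf1 hold 1 TGTGGT match each, and Gzmk and Gzmn hold none. Of 32851 upstream windows of the same length in the table, 14.05% hold at least 1 TGTGGT match and 1.27% at least 2; AP-1 matches occur in 6.75%. Gzmk holds the T-box motif GGTGTGA, found in 3.33% of windows, and none of the 9 genes holds the STAT motif TTCNNNGAA, found in 7.02%. The 5 genes are close copies, so their matches are not separate occurrences. A match is a description of letters and does not show a bound factor.

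In healthy colon, Gzma and Gzmb made up nearly all granzyme and perforin transcripts. Gzma stood at 11.0, 30.1 and 26.0 FPKM in sham replicates 1, 2 and 3. Gzmb stood at 4.42, 15.4 and 16.1 FPKM in the same order. For both genes sham replicate 1, the library with more B cell RNA, was the lowest, and the 2 genes overlapped in level. Together they took 95.5% to 99.2% of the summed FPKM of the 9 genes. Gzmc followed far lower, at 0.278, 0.521 and 0.112 FPKM. Gzmk was at 0.224, 0.168 and 0.144 FPKM, from 5, 4 and 4 counts. Prf1, the pore former, was at 0.217, 0.203 and 0.0777 FPKM, from 9, 9 and 4 counts. Gzmc, Gzmk and Prf1 did not differ in order beyond their spread, and every colon value of Gzmb lay above every one of Gzmc. Gzmd and Gzmf gave 1 count each over the 3 colon libraries, both in replicate 2, and Gzme and Gzmg gave none; 3 counts, the limit that a count of 0 allows, correspond to 0.151 to 0.187 FPKM for a gene of 1 kb, for counting error only. Gzmb FPKM was 20.4, 76.0 and 207 times Prf1 FPKM in the 3 colon libraries.

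In model tumours the order was different, and granzymes D, F and G led. Gzmg stood at 87.3, 86.0 and 87.4 FPKM in model replicates 1, 2 and 3, the smallest spread of the 9 genes relative to its mean (86.9 ± 0.78, SD, n = 3). Gzmf stood at 94.1, 86.2 and 80.1 FPKM. Gzmd stood at 78.3, 90.4 and 89.2 FPKM. These 3 genes overlapped each other and lay above all the rest in every model tumour. Gzmc (36.4, 38.0 and 35.2 FPKM) and Gzme (28.4, 28.2 and 36.2 FPKM) came next and overlapped each other. Below them and separate from each other were Gzmb (25.8, 25.8 and 23.5 FPKM), Prf1 (17.0, 18.2 and 14.2 FPKM) and Gzma (9.02, 13.5 and 6.75 FPKM). Gzmk stayed near the bottom of the range, at 0.337, 0.480 and 0.262 FPKM, from 11, 13 and 6 counts. The plot of levels in all 9 libraries shows the 5 cluster genes leaving the bottom of the scale while Gzma, Gzmb and Gzmk stay within an order of magnitude of colon.

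**Figure D1:**
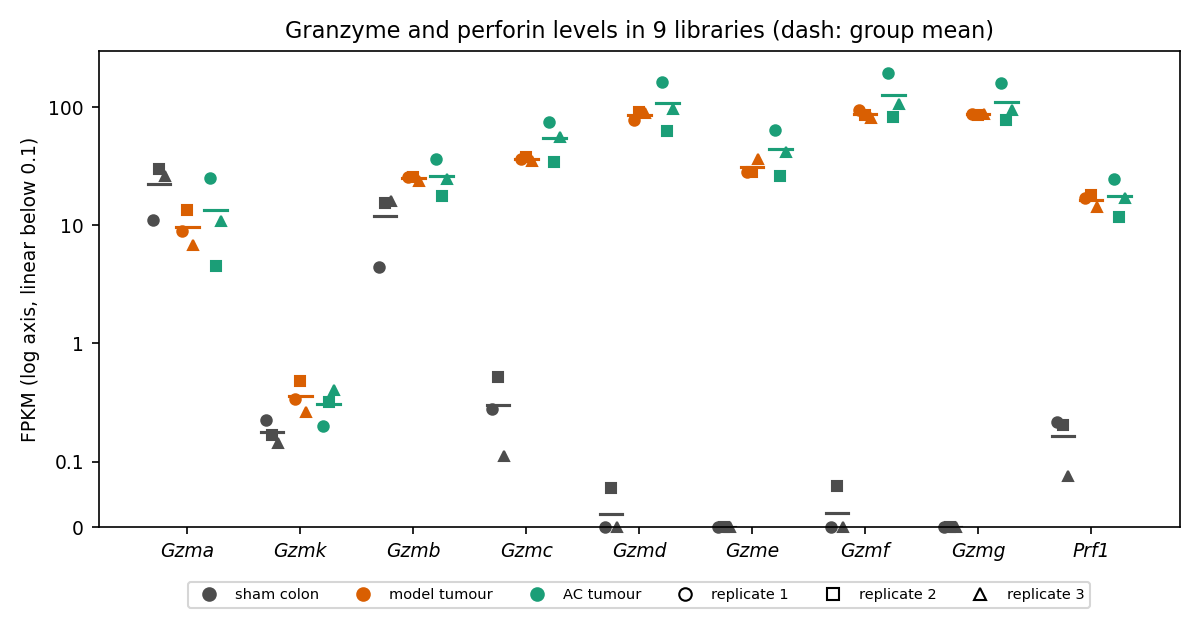
FPKM of the 9 genes in each library, on an axis that is logarithmic above 0.1 and linear below it; points are libraries, symbols are replicates, colours are groups and dashes are group means. Gzmd, Gzme, Gzmf and Gzmg lie at 0 or under 0.1 FPKM in all 3 sham libraries and at 26.2 FPKM or more in all 6 tumours.

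The make-up of the granzyme pool differed between colon and tumour. Granzymes C to G together took 0.265% to 1.72% of the summed FPKM in colon, 85.0% to 88.0% in model tumours and 88.2% to 89.2% in AC tumours. The share of Gzma plus Gzmb was 8.11% to 10.2% in model tumours and 6.98% to 8.31% in AC tumours. The summed FPKM of the 9 genes was 16.1, 46.6 and 42.4 in colon and 377, 387 and 373 in model tumours. Gzmb FPKM was 1.42 to 1.65 times Prf1 FPKM in model tumours and 1.46 to 1.502 times in AC tumours, so this ratio spanned 1.16-fold over 6 tumours.

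**Figure D2:**
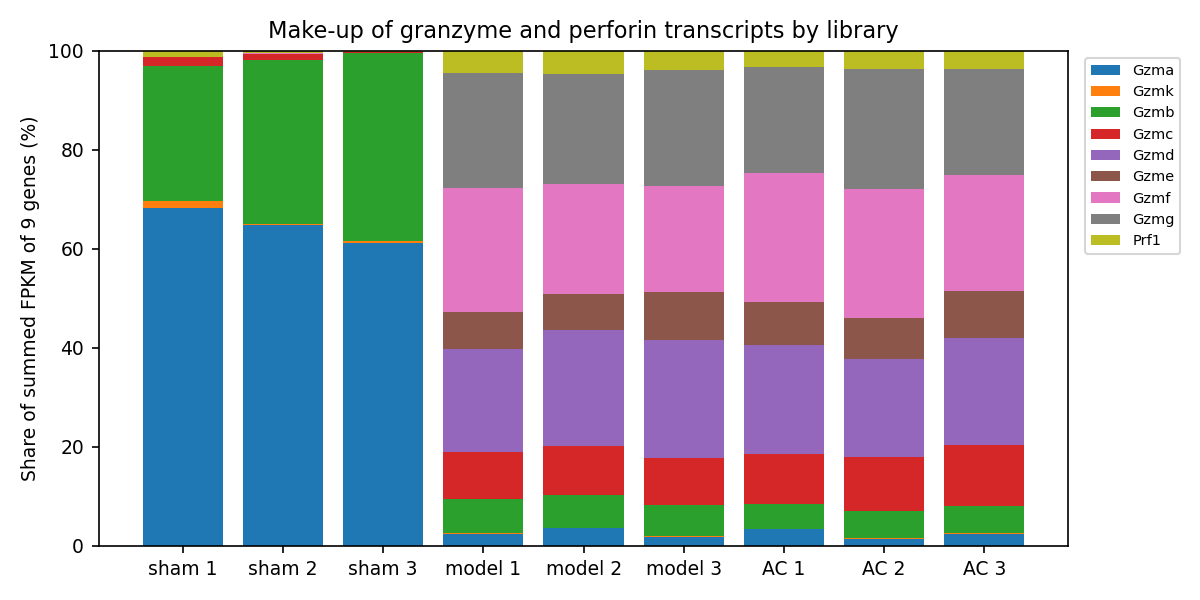
Share of the summed FPKM of the 9 genes held by each gene, in percent, with 1 stacked bar per library. Gzma and Gzmb fill 95.5% or more of each sham bar, and granzymes C to G fill 85.0% to 89.2% of each tumour bar.

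Along the chromosome 14 cluster, the tumour levels were not graded by distance from Gzmb. From Gzmb outward, mean FPKM in model tumours was 25.1 ± 1.34 for Gzmb, 36.5 ± 1.41 for Gzmc, 86.8 ± 7.02 for Gzmf, 86.9 ± 0.78 for Gzmg, 86.0 ± 6.72 for Gzmd and 30.9 ± 4.56 for Gzme (SD, n = 3). Gzmn, the granzyme gene between Gzmf and Gzmg, gave no count in colon, 1 to 3 counts per model tumour and 1 to 5 per AC tumour. Gzmn is 63.4% to 77.7% identical in transcript to Gzmc to Gzmg but carries the unrelated upstream sequence printed above. Gzmm, a further granzyme on chromosome 10, gave 3, 6 and 1 counts in colon, 24, 15 and 16 in model tumours and 25, 19 and 14 in AC tumours. Its rise from colon to model tumours passed the edgeR test (log2 1.64, SE 0.568, adjusted p = 0.0374), but 5 of the 6 fits that leave out a library lost it, with adjusted p up to 0.113.

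**Figure D3:**
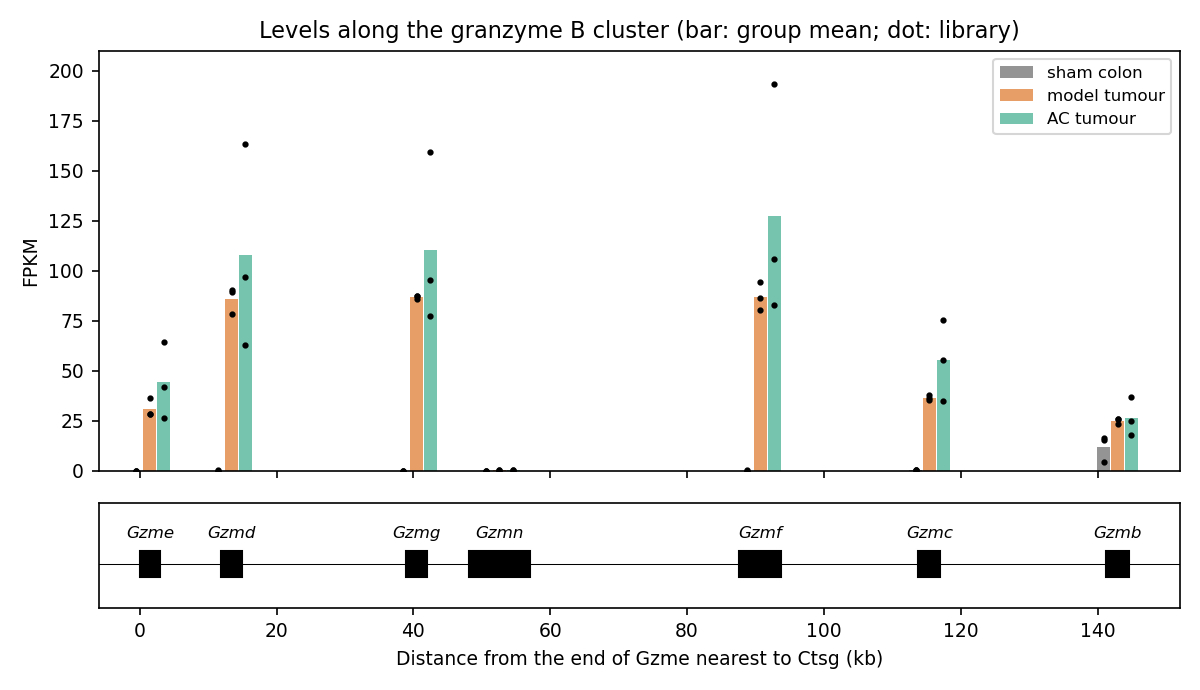
Upper panel: FPKM of the 7 granzyme genes of the cluster, with bars for group means and dots for libraries. Lower panel: gene positions in kb from the end of Gzme nearest to Ctsg; Gzmd, Gzmg and Gzmf carry the tallest tumour bars and Gzmn, between Gzmg and Gzmf, stays near 0 in every group.

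Against colon, the model tumours were higher for 6 of the 8 genes that passed the filter on low counts and lower for Gzma. In this comparison 69.7% of 18228 genes were called at an adjusted p of 0.05 in edgeR (36.8% higher and 32.9% lower in tumours), and 76.7% had groups that did not overlap, so the 7 members called, all without overlap in CPM (counts relative to library size, scaled by TMM within the comparison), are close to what most genes did and nothing is read from their number. Without scaling factors 67.3% of the calls were higher, against 52.8% with TMM, and the median of all genes moved from 0.12 to 0.72 on the log2 scale. Prf1 was at 34.6 ± 5.45 CPM in model tumours and 0.527 ± 0.237 in colon (log2 difference 6.04, SE 0.373, n = 3 and 3). Gzmc was at 26.5 ± 1.94 CPM and 0.336 ± 0.231 (log2 difference 6.30, SE 0.437). For Gzmd, with 4889 counts in model tumours and 1 in colon, the ratio of CPM was 2880 with a 95% counting interval of 516 to 114000. For Gzmf, with 4790 counts and 1, it was 2820 (506 to 111000). Gzme and Gzmg had no count in colon and were at least 326-fold and at least 922-fold higher in model tumours, against a floor of 3 counts over the colon group. Every model tumour lay far above every colon library for these 6 genes.

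Gzma and Gzmb, the main granzymes of the colon, showed smaller differences, and Gzma was lower in model tumours. Gzmb was at 29.3 ± 2.84 CPM in model tumours and 21.5 ± 12.1 in colon, a log2 difference of 0.44 (SE 0.468). This difference depended on scaling and on sham replicate 1: it was 1.06 without scaling factors, 1.27 in limma on log2(FPKM + 0.1) and 0.03 without sham replicate 1, and in FPKM the groups did not overlap (23.5 or more in model tumours, 16.1 or less in colon). Gzma was at 8.01 ± 2.94 CPM in model tumours and 28.1 ± 13.0 in colon, a log2 difference of -1.81 (SE 0.459). In FPKM, which carries no TMM factor, the groups overlapped for Gzma, since model replicate 2 (13.5) lay above sham replicate 1 (11.0). Fewer cells of a type and less RNA per cell cannot be told apart in bulk tissue.

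AC tumours differed from each other more than model tumours did. In AC replicates 1, 2 and 3, Gzmf stood at 193, 82.7 and 106 FPKM. Gzmg stood at 159, 77.3 and 95.3 FPKM. Gzmd stood at 163, 63.0 and 97.0 FPKM. For all 3 genes AC replicate 1 was above every model tumour, and AC replicate 2 was below every model tumour for Gzmg and Gzmd and within the model range for Gzmf. Gzmc was at 75.5, 34.6 and 55.5 FPKM and Gzme at 64.3, 26.2 and 42.0. Gzmb was at 36.6, 17.7 and 24.8 FPKM, Prf1 at 24.4, 11.8 and 17.0, and Gzma at 24.99, 4.50 and 10.8. AC replicate 1 was the highest and AC replicate 2 the lowest for 8 of the 9 genes. Gzmk was the exception, at 0.201, 0.321 and 0.403 FPKM, from 5, 7 and 9 counts. The highest AC tumour exceeded the lowest by 2.06-fold for Gzmg, the smallest of these ratios besides Gzmk, and by 5.56-fold for Gzma; among model tumours the same ratio ran from 1.02 for Gzmg to 2.00 for Gzma. By mean FPKM the AC order was Gzmf (127 ± 58.2), Gzmg (111 ± 43.0), Gzmd (108 ± 50.9), Gzmc (55.2 ± 20.5), Gzme (44.2 ± 19.1), Gzmb (26.4 ± 9.55), Prf1 (17.7 ± 6.35), Gzma (13.4 ± 10.5) and Gzmk (0.308 ± 0.101; SD, n = 3). Every neighbour in that order overlapped the next except Gzma and Gzmk.

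The comparison of AC with model tumours asks how tumour RNA differed with the herbal treatment. The log2 differences were 0.56 (SE 0.252) for Gzmc, 0.52 (SE 0.31) for Gzmf, 0.48 (SE 0.303) for Gzme, 0.31 (SE 0.246) for Gzmg and 0.29 (SE 0.333) for Gzmd. They were 0.42 (SE 0.633) for Gzma, 0.07 (SE 0.251) for Prf1 and 0.04 (SE 0.234) for Gzmb. None of the 8 genes tested was called, and the groups overlapped for all 8. By edgeR 0.0% of 17137 genes were called in this comparison, 13.1% had an unadjusted p under 0.05 and 19.1% had groups that did not overlap; DESeq2 called 284 genes and limma on log2 FPKM none. None of the members had an unadjusted p under 0.05 in edgeR, and 1 had in DESeq2. The differences depended on AC replicate 1. Without it, Gzma (-0.38), Gzmb (-0.26), Prf1 (-0.22), Gzmd (-0.13) and Gzmg (-0.03) were lower in AC tumours, and Gzmc (0.28), Gzme (0.12) and Gzmf (0.10) were closer to 0. AC replicate 3, the tumour with epithelial RNA, lay between the other AC tumours for these 8 genes.

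**Figure D4:**
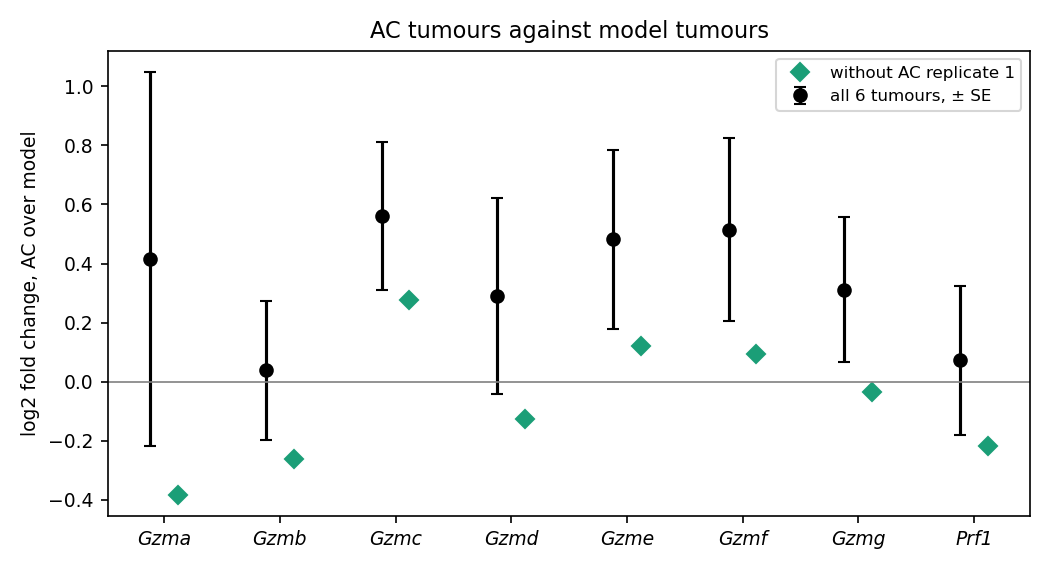
Log2 difference between AC and model tumours for the 8 genes tested; circles are edgeR estimates from all 6 tumours with bars of 1 SE, and diamonds are the estimates without AC replicate 1. All 8 circles are above 0, and 5 of the 8 diamonds are below it.

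AC tumours were also set against colon; the comparison uses the same 3 colon libraries as that of model tumours and is not independent of it. Prf1 was at 36.6 ± 12.8 CPM against 0.535 ± 0.241 in colon (log2 difference 6.10, SE 0.473), and Gzmc at 39.5 ± 14.3 against 0.341 ± 0.234 (6.85, SE 0.56). The CPM ratio was 3590 (644 to 142000) for Gzmd and 4040 (725 to 160000) for Gzmf, each with 1 count in colon. Gzme was at least 465-fold and Gzmg at least 1150-fold higher. Gzmb differed by 0.47 (SE 0.523) and Gzma by -1.40 (SE 0.665), and neither was called by edgeR. Of 8 members tested, 6 were called, all higher and without overlap, where 68.2% of 17832 genes were called, 35.5% higher and 32.7% lower, and 75.8% had groups that did not overlap; nothing is read from the members' number. Without scaling factors 68.2% of the calls were higher, against 52.1% with TMM. Without AC replicate 1 the log2 difference of Gzma was -2.16.

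How the members varied together over the 6 tumours was measured as Pearson's r of log2(CPM + 0.5) and is given as a description, since the libraries of a group share its treatment and AC replicate 1 is the extreme for most members. Within granzymes C to G, r was 0.884 to 0.977 in 10 pairs; without the 2 tumours farthest from the median it ran from -0.47 to 0.978, so part of it rests on those tumours. Prf1 followed Gzma with r of 0.988 and Gzmb with 0.978, and with 0.936 and 0.93 without the 2 farthest. With granzymes C to G, r of Prf1 was 0.711 to 0.895, and between -0.499 and 0.552 without the 2 farthest. Gzmd was as close to Gzma (0.924) and Gzmb (0.925) as to some of granzymes C to G, and without AC replicates 1 and 3 Gzmc went with Gzma (0.946) and Prf1 (0.913) and not with Gzme (-0.224), so the members do not split into separate sets. Gzmk, at 5 to 13 counts per tumour, had r of -0.629 to -0.155 with the other members, and of 0.189 to 0.932 without the 2 tumours farthest for Gzmk, so even its sign rests on them.

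Beyond the members, the genes ranked most like Prf1 among 11554 with at least 5 CPM were Cd55, a complement regulator (r = 0.989), Rnf115, a ubiquitin ligase (0.981), Hmgn5, a nucleosome-binding protein (0.980), Smyd4 (0.978) and Serpinb9b, a relative of the granzyme B inhibitor serpin B9 (0.964). Without the 2 farthest tumours these were 0.97, 0.984, 0.878, 0.877 and 0.74. The 5 most like the mean of granzymes C to G were an unnamed feature of the authors (0.973), the transcription factor Rfx7 (0.968), the RNA sensor Tlr8 (0.949), Ap5s1 (0.948) and the oxygen sensor Egln2 (0.948). Without the 2 farthest tumours, Rfx7 (0.906) and Egln2 (0.898) stayed high, Tlr8 was at 0.387, and the unnamed feature (0.115) and Ap5s1 (-0.591) did not stay. These were picked as the highest of many on 6 points, so no p is given.

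Markers of the cells that make granzymes moved in different directions. Ncr1, the NK cell receptor NKp46, stood at 0.565, 0.605 and 0.326 FPKM in colon, 1.63, 1.70 and 1.89 in model tumours and 3.52, 1.2002 and 2.14 in AC tumours, with 29 to 97 counts per tumour. It was highest in AC replicate 1 and lowest, among tumours, in AC replicate 2, as Gzmc, Gzmd, Gzme, Gzmg, Gzma, Gzmb and Prf1 were; Gzmf was highest in AC replicate 1 and lowest in model replicate 3. Over 6 tumours its r with the mean of granzymes C to G was 0.970, and 0.962 without AC replicates 1 and 3; with Prf1 it was 0.859, and -0.296 without AC replicates 1 and 2. The sum of granzymes C to G was 174 to 236 times Ncr1 in tumours, a span of 1.36-fold, and 0.344 to 1.07 times Ncr1 in colon. Against Cd3e, the signalling subunit of the T cell receptor complex, the same ratio spanned 4.69-fold in tumours (283 to 1329), and against Cd8a 3.99-fold. Other NK cell markers gave less even values. The ratio to Klrb1c spanned 2.74-fold (835 to 2290), but Klrb1c had only 7 to 27 counts per tumour, so counting error widens this span. Over 6 tumours r with the mean of granzymes C to G was -0.331 for Klrk1 and 0.279 for Klre1. Without AC replicates 1 and 3 these were 0.849 and 0.568, so they too rest on those tumours. Cd3e stood at 2.06, 1.40 and 1.52 FPKM in colon, 0.940, 0.868 and 1.16 in model tumours and 0.493, 0.578 and 0.792 in AC tumours, lowest in the AC tumour with the most granzyme. Its r with the mean of granzymes C to G over the tumours was -0.579, but 0.883 without AC replicates 1 and 3, and for Cd8a these were -0.090 and 0.82, so both rest on those tumours. Cell numbers were not measured, and whether NK cells are the source of these transcripts was not tested.

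**Figure D5:**
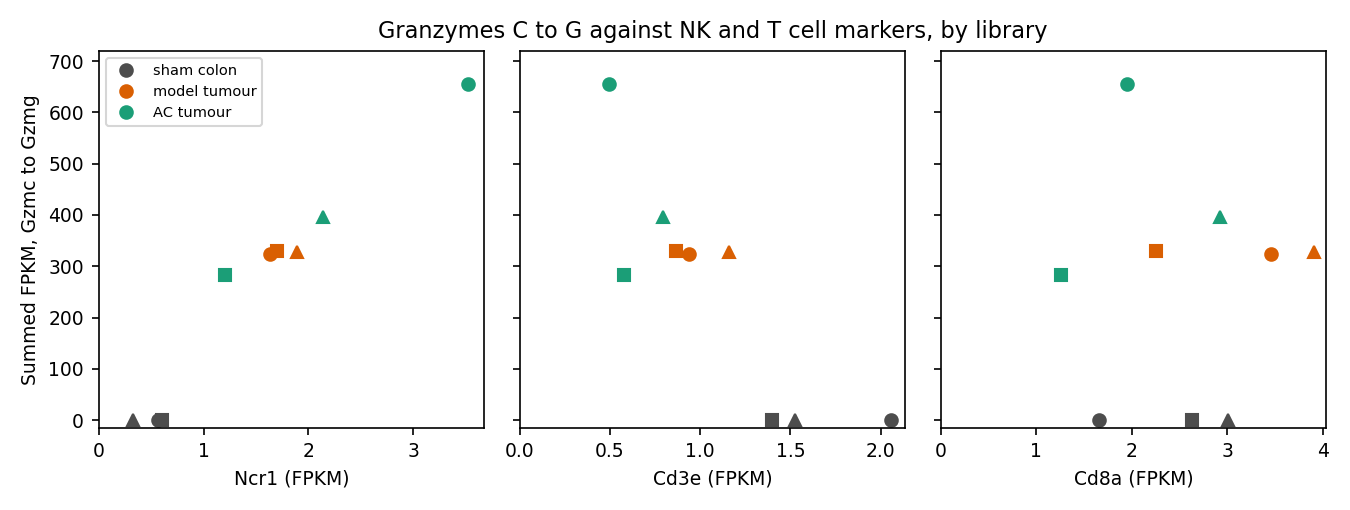
Summed FPKM of Gzmc to Gzmg against the FPKM of Ncr1, Cd3e and Cd8a in each of 9 libraries; colours are groups and symbols replicates. Over 6 tumours r on the log2 CPM scale was 0.970 with Ncr1 and -0.579 with Cd3e, which is 0.883 without AC replicates 1 and 3.

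By edgeR, Ncr1 rose from colon to model tumours (log2 1.197, adjusted p = 0.0163), a call lost without sham replicate 3 (0.0711) or model replicate 3 (0.0515). Of 8 NK cell markers tested, 5 rose and none fell, with Klrk1, an activating receptor, at log2 2.22 (adjusted p = 0.00102) and Klrg1, a receptor of mature NK and effector T cells, from 2 counts in colon to 138. The summed FPKM of 10 NK markers was 4.21 to 5.67 in colon, 10.5 to 14.6 in model tumours and 8.43 to 16.4 in AC tumours. Among them, Klra8 gave 5 counts over the 3 colon libraries and 0 in every tumour, too few to read as a difference. Of 12 T cell markers tested, none rose and 6 fell, among them Cd3e (log2 -1.36, adjusted p = 0.00269). The calls of Cd3g, Cd247, Cd6 and Lck were lost whichever model library was left out. Their summed FPKM was 14.9 to 108 in colon, with the highest in sham replicate 1, 17.6 to 21.9 in model tumours and 11.7 to 20.7 in AC tumours. Trdc, a chain of the gamma delta T cell receptor carried by many colonic intraepithelial lymphocytes, fell (log2 -2.24, adjusted p = 0.00127). It was 1 of 3 that fell among 4 gamma delta and intraepithelial T cell markers. Over all genes 36.8% were called higher and 32.9% lower, and nothing is read from the counts of these short marker lists. Cd4 fell by log2 -3.34 (adjusted p = 0.018), a call lost without model replicate 2 or 3, and Cd8a did not pass (log2 -0.22, adjusted p = 0.558). Foxp3 was called higher (log2 1.64, adjusted p = 0.0199), a call lost in 4 of the fits that leave out a library. Cd8b1 was not called, but was at 0.203 to 1.05 FPKM in colon and 1.87 to 2.37 in model tumours. Between AC and model tumours no marker was called: Cd8b1 was at log2 -1.12 (adjusted p = 0.257) without overlap between groups, and Klrk1 at -0.89 (adjusted p = 0.285), while Ncr1 was at 0.36 (adjusted p = 0.703). The part of these cell markers in the granzyme differences was not tested.

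The other genes of the granule pathway were taken from lists by role, 94 genes with 81 tested in model against colon. Of these, 27 rose, 25 fell and 29 did not pass, near the 36.8% and 32.9% of all genes called in each direction, with a median log2 difference of 0.37 against 0.12 over all genes tested. Without scaling factors 37 were higher and 17 lower, and in limma on log2(FPKM + 0.1) 40 and 19. The lists by role are short, and nothing is read from their counts below. In granule processing and storage, 2 of 11 rose and 2 fell, with a median of 0.03 that is 0.65 without scaling factors and -0.08 with DESeq2's size factors. Ctsc, the protease that activates granzymes by removing their leading dipeptide, rose from 102 ± 26.2 to 223 ± 55.5 CPM (log2 1.12, edgeR adjusted p = 0.00794), and Ctsl, a protease of many cell types, from 160 ± 21.4 to 1330 ± 48.6. Ctsw, a cathepsin of cytotoxic lymphocytes, fell from 5.27 ± 1.33 to 2.03 ± 0.309 CPM (adjusted p = 0.00674). M6pr, a receptor that sorts granzymes to granules, was called lower (log2 -0.37) but was at 0.23 without scaling factors, and 3 of 6 fits that leave out a library lost the call.

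In the machinery that docks and fuses granules, 1 of 11 tested rose and 7 fell, with a median of -0.91 that is -0.30 without scaling factors. Lyst, which limits granule size, rose from 18.3 ± 5.61 to 47.5 ± 4.84 CPM (adjusted p = 0.00219). Stxbp2, a syntaxin partner needed for granule release, fell from 140 ± 36.9 to 11.9 ± 2.38 (adjusted p = 8.22e-05), and Vamp8, a fusion protein, from 194 ± 39.2 to 36.4 ± 4.67. Both are also expressed by epithelium, whose marker sum fell from between 10920 and 16278 FPKM in colon to between 114 and 240 in model tumours. Whether the loss of epithelial RNA bears on the fall of Stxbp2 and Vamp8 was not tested. Snap23, called lower (log2 -0.54), was at 0.07 without scaling factors.

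Of 6 serpins, listed as granzyme inhibitors or relatives of them, 4 were called higher and 1 lower, with a median of 1.64. Over all genes, 36.8% and 32.9% were called in each direction. Serpinb9b went from 2 counts in colon to 1595 in model tumours, a CPM ratio of 469 (95% counting interval 130 to 3880; edgeR adjusted p = 6.78e-05). Its FPKM was 7.97, 8.24 and 7.78 in model tumours and 10.2, 6.81 and 8.85 in AC tumours. Serpinb9, the inhibitor of granzyme B, rose by log2 1.71 (adjusted p = 0.000344), and Serpina3g from 6.69 ± 5.61 to 36.8 ± 7.36 CPM (adjusted p = 0.00818). Serpinb6a fell from 539 ± 86.1 to 315 ± 25 CPM (adjusted p = 0.00551). Among 12 granzyme substrates and effectors, 4 rose and 5 fell (median -0.04, and 0.56 without scaling factors). Apex1, a DNA repair enzyme cut by granzyme A, rose from 3.76 ± 1.1 to 20.3 ± 0.391 CPM. Gsdme, a gasdermin opened by granzyme B, fell from 222 ± 52.0 to 46.8 ± 4.76 (edgeR adjusted p = 0.000175).

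Of 3 tested genes for other pore-forming or complement proteins, 2 rose. Mpeg1, the perforin-like protein of macrophages, went from 35.7 ± 29.8 to 221 ± 24.6 CPM (edgeR adjusted p = 0.00562). The complement component C6 also rose (edgeR adjusted p = 0.0352), a call lost in 3 of 6 fits that leave out a library. All 6 macrophage markers tested were called higher too, where 36.8% of all genes were, and nothing is read from that number. Whether macrophages bear on the level of Mpeg1 was not tested. Of 7 death ligands and receptors, 2 rose and 4 fell. The other gene, Fasl, was not called, and was at 0.180 to 0.363 FPKM in colon and 0.609 to 1.10 in model tumours. Tnfsf10, the ligand TRAIL, fell from 178 ± 12.8 to 11.1 ± 1.95 CPM (adjusted p = 2.01e-05) and Fas from 49.2 ± 0.842 to 6.25 ± 0.771, while Cflar, an inhibitor of death receptor signalling, rose from 161 ± 25.2 to 306 ± 17.7.

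Of 12 transcription factors tied to cytotoxic cells, 3 rose and 2 fell (median 0.15). Zeb2 rose from 10.1 ± 4.17 to 226 ± 6.38 CPM (adjusted p = 5.96e-05) and Nfil3, needed for NK cell development, by log2 2.51 (0.000146), and Prdm1 fell from 62.0 ± 5.01 to 14.3 ± 2.7 (0.000126; edgeR). Irf4 fell from 9.41 ± 10.4 to 1.12 ± 0.465 CPM (adjusted p = 0.0186), a call lost without model replicate 2 or 3. Of 13 inducing cytokines and receptors, 5 rose and 2 fell (median 1.08). Il18rap, a chain of the interleukin 18 receptor, rose from 1.64 ± 0.349 to 262 ± 41.8 CPM (adjusted p = 1.44e-05), and Il12rb1 from 0.935 ± 0.0943 to 10.2 ± 1.07. Il18, the ligand of that receptor, fell from 220 ± 25.8 to 2.39 ± 0.547 CPM (adjusted p = 1.57e-05), and Il15, a growth factor of NK cells, from 43.3 ± 3.45 to 11.5 ± 0.864. Ifng, the cytokine released by the same lymphocytes, was called higher (log2 2.37, adjusted p = 0.0345) but was lost in 4 of 6 fits that leave out a library. Many of these genes are expressed outside lymphocytes, and which cells changed was not tested.

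In AC tumours against colon, of 79 pathway genes tested, 26 rose, 23 fell and 30 did not pass (median 0.33, against 0.10 for all genes), near the 35.5% and 32.7% of all genes called in each direction. Without scaling factors 36 were higher and 16 lower. The colon libraries are the same as above. Serpinb9b went from 2 counts to 1445 (ratio 492, 136 to 4060), Il18rap from 1.66 ± 0.355 to 274 ± 66.4 CPM and Stxbp2 from 142 ± 37.4 to 12.9 ± 1.24. Between AC and model tumours none of 79 pathway genes was called by edgeR, 7 had an unadjusted p under 0.05 and DESeq2 called 2, Prdm1 and Mpeg1, both lower in AC tumours. Mpeg1 was at 195 ± 27.6 CPM in AC and 276 ± 33.1 in model tumours (log2 -0.50, edgeR adjusted p = 0.257). Serpinb9 was at 30.4 ± 4.93 and 37.1 ± 0.937 (log2 -0.29, adjusted p = 0.391).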

How the data were processed

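RNA-seq libraries came from 9 samples in 3 groups of 3, grouped by the treatment and tissue in the labels, with replicate numbers from the titles. Whether these were separate animals is not stated, so every p-value reflects the spread among the samples alone, and that spread may be technical. The authors deposited unnormalized read counts; the submitters' processing notes name featureCounts 1.5.0-p3 and build mm9. The authors also deposited FPKM for the same genes, which are the counts scaled to gene length and library total. No aligner, read length or strand setting is given in the sources used here. Gene lengths recovered from FPKM and counts matched the GENCODE M21 exons to 1% for 96.2% of 16658 genes with at least 20 counts in a pair of libraries, so names and coordinates are GENCODE M21 (GRCm38), and the build in the notes differs from it.

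Each pair of groups, 6 libraries, was fitted separately in edgeR 4.0.16 under R 4.3.3 (TMM, filterByExpr, robust quasi-likelihood fit, Benjamini-Hochberg over all genes tested, threshold 0.05). The SE is the log2 difference divided by the square root of F. The fit was also run on simulated data in which few genes differed between groups. In both comparisons with colon most genes were called, so that run cannot vouch for those fits. Alternatives were DESeq2 1.42.0, limma 3.58.1 on log2 FPKM, other scalings and filters, a replicate block and leaving out each library. Ratios against 1 to 3 counts carry 95% Clopper-Pearson counting intervals, and bounds use 3 counts over the group; reads without molecular identifiers make both cover counting error only. Identities are from global alignments (Biopython), as matches over the alignment length with gaps included. Upstream sequences are RefSeq's.

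The 9 members and the gene lists were chosen with earlier results of these data known. All members were named. From each list, up to 2 called genes per direction with the largest change and at least 1 CPM in the higher group were named, or the gene with the smallest p where none was called, together with defining markers; the text uses most of these, and other genes named from a list were chosen after their values were seen. For likeness, the 5 genes with the highest r were named. Of the lists, 1 release gene and 2 gamma delta T cell receptor genes had no match in the annotation and were not used here. RefSeq protein sequences were not used here. A gene that this rule names is not reported here.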

Additional observations from a re-analysis of the deposited data

How the results depend on the processing

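Most results held: of 416 alternative values for single members, 402 kept direction and side of the threshold. Between AC and model tumours the count of genes called, 0 by edgeR, became 284 with DESeq2, 105 with no filter on low counts and 94 with model replicate 1 and AC replicate 3, the tumours with epithelium, both left out, and ran from 0 to 569 over the leave-one-out fits, the 569 without AC replicate 3. The count of listed pathway genes, 0, became 2, 1 and 3 under the first 3 of these and ran from 0 to 8 over the leave-one-out fits, the 8 without AC replicate 3; the cause was not tested. No member was called in this comparison under any alternative run. Over the leave-one-out fits of AC against model tumours, the log2 difference ran from -0.382 to 0.823 for Gzma, -0.262 to 0.249 for Gzmb, -0.127 to 0.555 for Gzmd, -0.034 to 0.506 for Gzmg and -0.219 to 0.287 for Prf1, each lowest without AC replicate 1 and highest without AC replicate 2; Gzmb (-0.018) and Prf1 (-0.034) also reversed without model replicate 3. With the replicate block Gzmb reversed (-0.014). Between AC tumours and colon, Gzmb ran from -0.032 without sham replicate 1 to 0.726 without sham replicate 3 over the leave-one-out fits, and up to 1.28 over all settings, in limma on log2(FPKM + 0.1). Gzma in model tumours against colon was at -1.81 in edgeR, -1.121 in limma at log2(FPKM + 0.1), with or without the filter, and -1.054 at log2(FPKM + 1), and was not called in limma. Gzma in AC tumours against colon, not called in edgeR, was called in DESeq2 (-1.472) and without AC replicate 1 (-2.16).

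Replicate numbers appear in all groups but the labels do not say what they mark. The deviations of same-numbered samples correlated at -0.528, 0.435 and -0.312 between AC and model tumours, at -0.059, 0.005 and -0.102 between model tumours and colon and at 0.134, -0.006 and 0.083 between AC tumours and colon. With the replicate block, 0, 11774 and 11303 genes were called in those comparisons, against 0, 12697 and 12165 without it, and 0, 7 and 6 members, as without it. Not every sample correlated best with its own number. The highest value between AC and model tumours, 0.654, joined AC replicate 3 and model replicate 1, the tumours with epithelium. With 3 samples per group, these values cannot decide whether a number marks a pair or a shared batch. Depth limits Gzmk, Gzmn and Gzmm throughout and, in colon, Gzmc to Gzmg and Prf1, with at most 22 counts per gene over the 3 colon libraries.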

Other observations

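Beside the granzyme cluster lie genes of mast cell and neutrophil proteases. Cma1, mast cell chymase, gave no count in colon and was at 3.09, 2.07 and 4.34 FPKM in model tumours, at least 39.4-fold higher (edgeR adjusted p = 0.00103). In AC tumours it was at 0.410, 0.702 and 12.4 FPKM, highest in AC replicate 3, the tumour with epithelial RNA. Mcpt4, a connective tissue mast cell chymase, was at 0.252, 0.230 and 9.48 FPKM in the same tumours and at 2.22 to 2.63 in model tumours. Ctsg, cathepsin G, which directly adjoins Gzme, instead followed the granzymes in being highest in AC replicate 1, at 5.25, 0.925 and 3.13 FPKM in AC tumours against 1.14 to 1.64 in model tumours and at most 0.113 in colon. Mcpt1, a mucosal mast cell protease, fell from 5.1 ± 1.86 CPM in colon to 0.0241 ± 0.0417 in model tumours (edgeR adjusted p = 0.0003), and Mcpt2 from 3.71 ± 1.66 to 0.325 ± 0.211 (0.00248). The summed FPKM of 9 mast cell and basophil markers was 1.44 to 1.64 in colon, 17.6 to 24.4 in model tumours and 8.18, 8.82 and 53.9 in AC tumours, so the highest mast cell level and the highest granzyme level were in different AC tumours.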
